A study of Mus musculus with 12 samples.

Results

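Interferon-stimulated genes are the genes a cell turns on when an interferon reaches it, and 44 such genes, induced by type I, II or III interferon and including the pair Apol9a and Apol9b, were followed in the gut epithelium after experimental stroke. The genes were picked by name. Of the 44 listed genes, 43 were matched by gene name among the 15855 genes of the count table, and 1 (Iigp1) was not analysed here. RNA was sequenced from live epithelial cells, sorted by the surface protein EpCAM from the entire small intestine of male C57BL/6J mice (C57BL6/J in the labels) that were 8 to 12 weeks old, so crypt and villus cells of all regions were mixed in each sample. The 5 pMCAO mice had a permanent occlusion of the middle cerebral artery, which shuts a main artery of the brain with no return of flow, and the 7 sham-operated mice had the surgery without the occlusion. All tissue was taken 24 h after surgery, the labels name no genetic change in either group, and each library was labelled as a biological replicate. The comparison asked which of these genes differed between sham-operated and post-stroke mice.

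Interferons signal through receptor pairs at the cell surface, and the type III receptor, whose specific chain is encoded by Ifnlr1, is a main route in the gut epithelium. Kinases of the Jak family then activate Stat2, which works with Irf9 at a DNA element called the interferon-stimulated response element (ISRE) in front of target genes. Type II interferon acts mainly through another element, the gamma-activated site (GAS). The target genes include sensors of foreign RNA, enzymes that degrade or mark it, proteins that hold back viral entry or release, GTPases that attack pathogen vacuoles, and subunits of the immunoproteasome, which cuts proteins into peptides for display to T cells. Apol9a and Apol9b encode apolipoprotein L proteins of the cell interior, and both are known targets of interferon.

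Promoter sequences are shown first for the pair, since the largest differences lay there, and then for 4 members of other families with the same kind of element. They were taken from RefSeq windows on GRCm38.p6, each with 250 bases before and 50 after a gene's start, and a window was found for 34 of the 44 listed genes. Each sequence runs 5′ to 3′ on the gene's own strand. Capitals mark matches to the ISRE-like letters GAAANNGAAA on either strand, where N is any base and matches may overlap.
Apol9a and Apol9b: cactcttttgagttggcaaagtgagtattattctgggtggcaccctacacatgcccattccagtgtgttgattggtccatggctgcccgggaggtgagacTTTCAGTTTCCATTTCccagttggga
Oas1a: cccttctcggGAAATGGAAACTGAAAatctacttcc
Ifit1: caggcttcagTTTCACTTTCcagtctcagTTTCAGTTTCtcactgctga
Ifit3: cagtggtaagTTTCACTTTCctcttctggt
Isg15: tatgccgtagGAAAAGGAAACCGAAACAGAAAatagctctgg

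The stretch of the pair lies at chr15:77411114-77411239 on the minus strand for Apol9a and at chr15:77728935-77729060 on the plus strand for Apol9b. The first listed windows of both genes could be laid over each other along 278 bases, and 278 of those bases were identical. No letter of these 278 bases separates the genes. Each gene had 2 listed windows, and the second ones were not compared. A pair of overlapping matches began 59 and 53 bases before the first listed start of Apol9a and 37 and 31 bases before that of Apol9b, which is the same place in the sequence with another listed start. The other stretches lie at chr5:120907520-120907555 (minus, Oas1a), chr19:34640775-34640823 (plus, Ifit1), chr19:34583363-34583392 (plus, Ifit3) and chr4:156200865-156200906 (minus, Isg15). Oas1a and Isg15 held overlapping matches, Ifit1 held 2 separate ones, and Ifit3 held 1 more match further downstream, outside the stretch shown.

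An ISRE-like match stood in a window of 19 of the 34 members (55.88%), against 3.99% of the 27025 genes with a window and 3.83% of the 9593 tested genes with one. The GAS-like letters TTCNNNGAA were found for 9 of the 34 members (26.47%), against 9.55% of all genes with a window. Without the Apol9 pair, the ISRE-like share was 17 of 32 (53.12%). These matches describe the letters only. The 15 members without an ISRE-like match in their windows included Irf7, Irf9, Oasl1, Oasl2, Psmb8 and Psmb9.

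A floor of 3 counts, the upper limit that a count of 0 allows for counting error alone, came to between 0.0692 and 0.724 CPM (counts scaled to the size of the library, with TMM factors). Total counts per sample ranged from 7418730 to 31925579. Mitochondrial ribosomal RNA took between 14.6% and 54.5% of the counts. The libraries carry running numbers in their titles. They were split into 4 runs of those numbers, at breaks that the labels do not give and that an earlier analysis took from the deposited fold changes: run 1 held 3 sham and 1 pMCAO mice, run 2 held 2 and 2, run 3 held 1 and 2, and run 4 held sham replicate 7 alone. The first principal component, with 40.5% of the variance, separated the 4 libraries of run 1 from the other 8. Groups were therefore compared with the run as a term (limma-voom, 14462 genes tested, Benjamini-Hochberg adjustment over all of them), and a fit on the group alone is given where it changes a call. Sham replicate 7 carries no information on the difference in the fit with runs. All 10 listed epithelial markers were present, with summed levels of 8297 to 13810 CPM in sham-operated and 8758 to 26200 CPM in pMCAO mice, and only 2 of 10 listed stromal and endothelial markers were matched, with a sum of at most 13.7 CPM.

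Both Apol9 genes were lower after stroke and were the only members called differentially expressed (DE), that is, with an adjusted p of at most 0.05 and a log2 fold change of at least 1 in either direction. Of all genes tested, 47 were DE (0.325%), 27 of them lower in pMCAO mice (0.187%) and 20 higher (0.138%), and the 2 DE members were both lower. Without the fold threshold, 69 genes passed (0.477%), the same 2 members among them. A log2 estimate of at least 1 in size was seen for 3 members, the pair and Ifit3, against 9.18% of all genes. All 43 members passed the filter on low counts. An unadjusted p under 0.05 was found for 9 of the 43 members (20.9%), against 12.7% of all genes. Of these, 8 were lower in pMCAO mice (18.6%), against 6.17% of all genes, and 1 was higher (2.33%), against 6.58%. The 8 include both Apol9 genes, and the members were chosen with earlier results of these data known. The point estimate of the log2 fold change (the log2 estimate) lay below 0 for 35 of the 43 members (81.4%), the pair included, against 48.7% of all genes. Without the run term 29 of the 43 lay below 0, and without both run 1 and the run term 25 of 42 did. Of 54 further interferon-stimulated genes outside the list, 23 lay below 0 in the fit with runs. Some members share sequence, so these signs are not all separate measurements. The median log2 fold change was -0.28 over the members and 0.01 over all genes tested, and it was -0.24 over the 41 members without the pair. Without the run term no gene was DE (0% of all genes), 1219 genes had an unadjusted p under 0.05 (8.43%), and the 4 members among them were Apol9a, Apol9b, Oas1a and Rtp4, all lower (9.30%, against 3.77% of all genes). In bulk RNA of sorted cells, fewer cells that express a gene and less of its RNA per cell cannot be told apart.

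**Figure D1:**
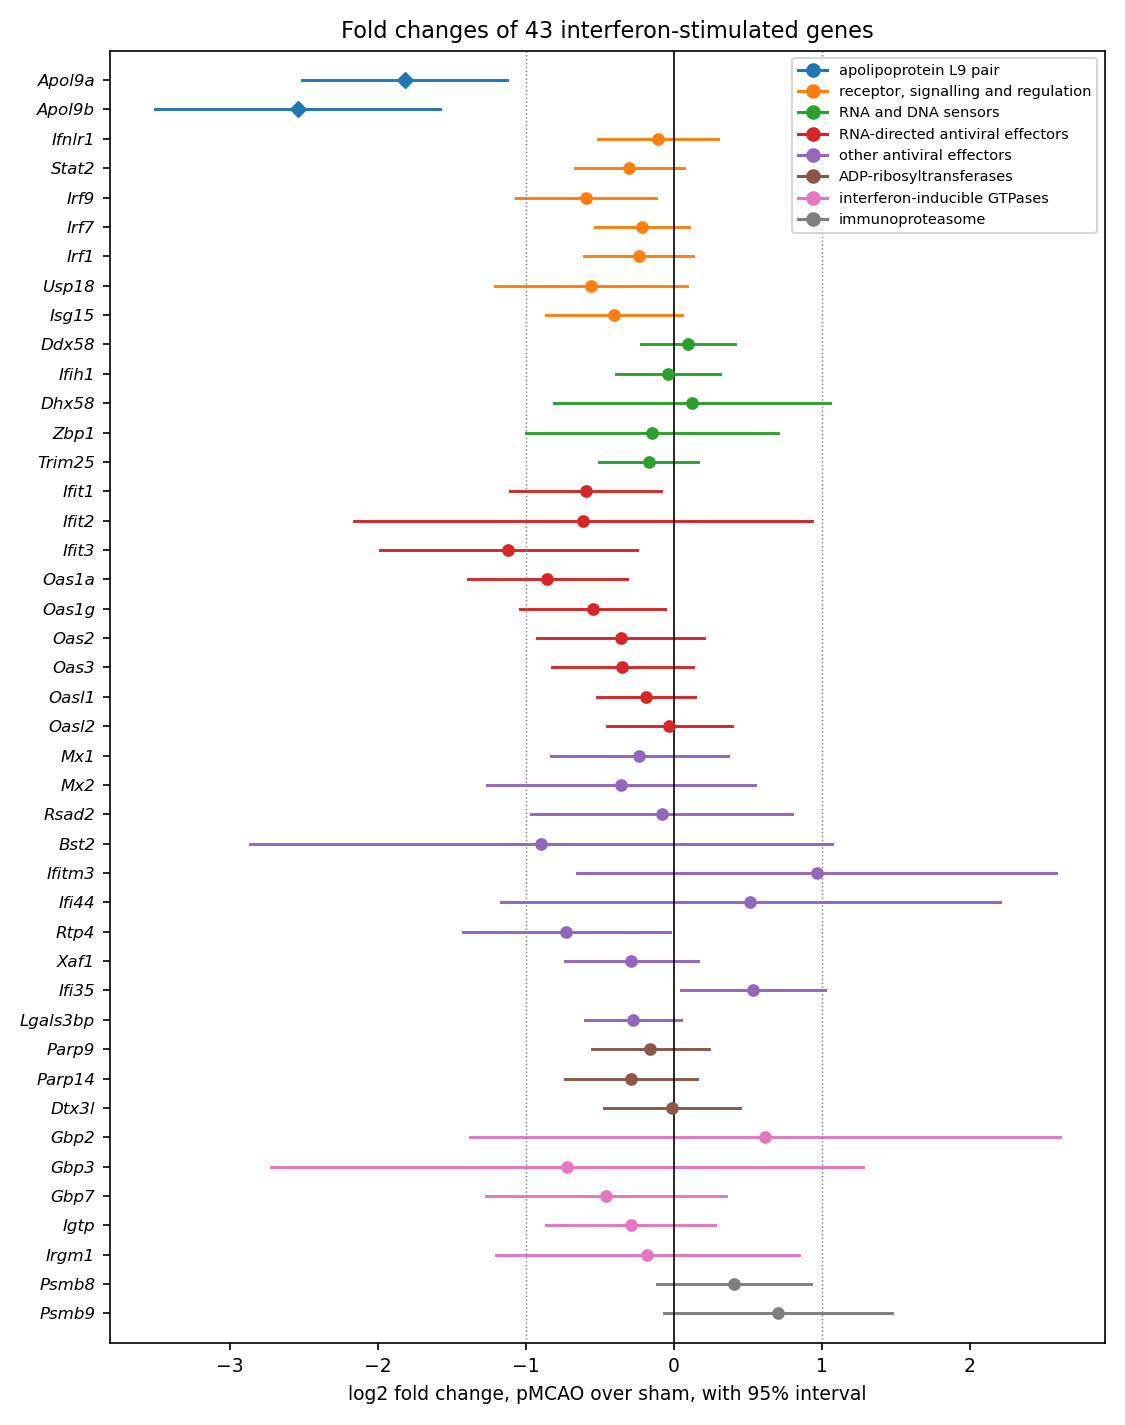
Log2 fold change of pMCAO over sham for the 43 members (x axis), by role (colour) with 95% intervals from the fit with runs; diamonds mark the DE genes and dotted lines a log2 fold change of 1 either way. Apol9a and Apol9b lie furthest to the left, and 35 of the 43 points lie below 0.

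Apol9b (ENSMUSG00000068246, chromosome 15, 77729039 to 77736382, plus strand, GRCm38) measured between 57.99 and 176.1 CPM in sham-operated mice, with a median of 82.76 CPM. In pMCAO mice it measured 31.4, 5.31, 52.2, 8.48 and 5.09 CPM in replicates 1 to 5. The groups did not overlap, and only 0.194% of all genes lay lower in every pMCAO sample than in every sham sample, with 1 member among them. Apol9b stood at 105.3 ± 45.9 CPM in the sham group (SD, n = 7) against 20.5 ± 20.8 CPM after stroke (SD, n = 5). Apol9b fell by 2.54 on the log2 scale (SE 0.46, limma-voom with runs, adjusted p = 0.0219), a 5.83-fold lower level. Within runs 1, 2 and 3, the log2 difference was -2.22, -2.28 and -3.39.

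Apol9a (ENSMUSG00000057346, chromosome 15, 77403789 to 77411135, minus strand) measured between 71.3 and 252.1 CPM in sham-operated mice, with a median of 168.1 CPM. In pMCAO mice it measured 54.2, 22.5, 104.5, 21.4 and 20.9 CPM in replicates 1 to 5. The groups overlapped through pMCAO replicate 3, which lay above sham replicates 4 (98.6 CPM) and 7 (71.3 CPM) and was also the highest pMCAO sample for Apol9b. Apol9a fell by 1.82 on the log2 scale (SE 0.33, limma-voom with runs, adjusted p = 0.0219), a 3.53-fold lower level, with differences of -1.97, -1.41 and -2.34 within the 3 runs. In the fit on the group alone, neither gene passed (limma-voom, adjusted p = 0.0728 for Apol9b, with a log2 estimate of -2.90, and 0.124 for Apol9a). The adjusted p also rose above 0.05 for both genes under edgeR (0.0625), without run 1 (0.320 and 0.349), and without sham replicate 6 or pMCAO replicate 1, 4 or 5 (0.0591 to 0.156), and for Apol9a without sham replicate 5 (0.0501), while the log2 fold change stayed between -3.24 and -1.47 over every sample left out.

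**Figure D2:**
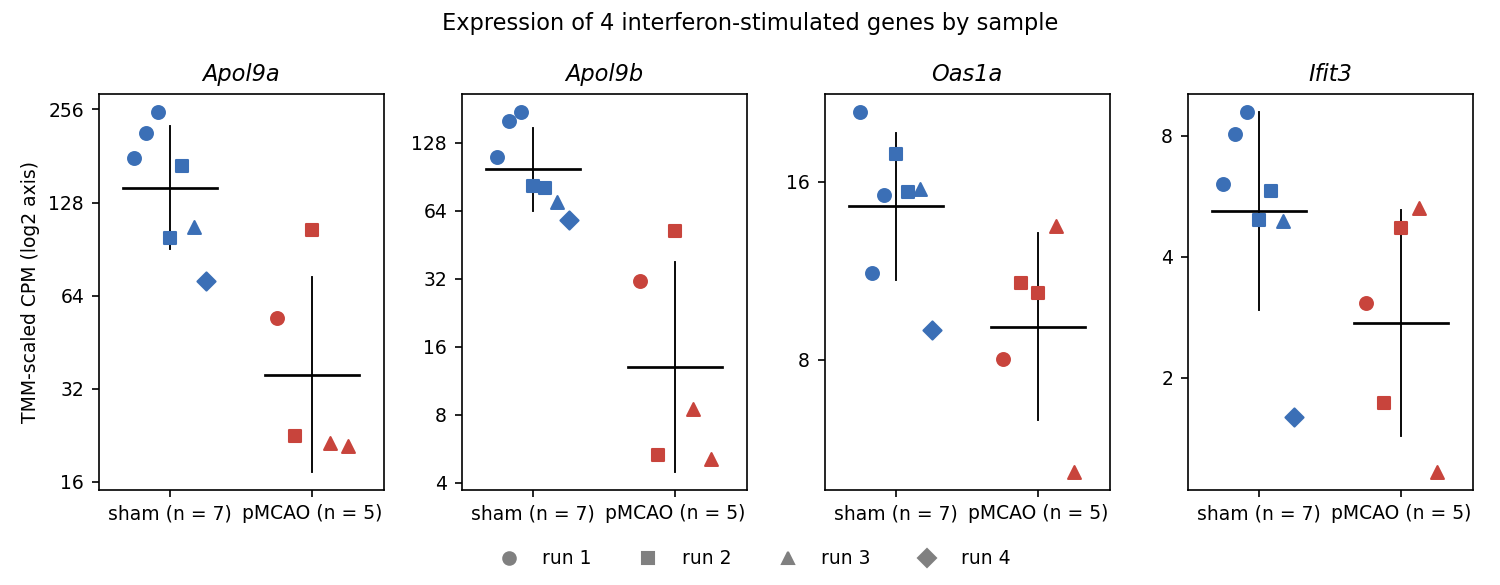
TMM-scaled CPM on a log2 axis for Apol9a, Apol9b, Oas1a and Ifit3 in each sample, with the symbol showing the run; horizontal bars are geometric means and vertical bars extend 1 SD of the log values. The 5 pMCAO values of Apol9b, up to 52.2 CPM, all lie below the 7 sham values, which start at 57.99 CPM, whereas the groups overlap for the other 3 genes.

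The genes of the pair share sequence, so part of their reads may fit both genes. Whether such reads were counted or dropped is not given in the sources used here. The shares below are for single stretches and do not take the pairing of reads into account. Of the 100-base stretches in exons of Apol9b, 36.7% also occur in Apol9a, and 11.7% of those of Apol9a occur in Apol9b, whose exons cover 1821 bases against 5953. With the counts of both genes summed into 1 feature, the level fell by 2.06 on the log2 scale (limma-voom with runs, adjusted p = 0.0139). The summed level ranged from 129.3 to 428.3 CPM in sham-operated and from 25.95 to 156.7 CPM in pMCAO mice, where only pMCAO replicate 3 reached the sham range.

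The split between the genes also differed. Apol9b held 40.6% ± 4.52 (SD, n = 7) of the pair's counts in sham-operated and 27.4% ± 7.93 (SD, n = 5) in pMCAO mice. The lowest shares were 19.1% (95% Wilson interval 17.0 to 21.4) for pMCAO replicate 2 and 19.6% (16.8 to 22.8) for pMCAO replicate 5. Sham replicate 4 had the highest share, 45.6% (43.1 to 48.2). The shares overlapped, since sham replicate 5 had 32.3% and pMCAO replicates 1 and 3 had 36.7% and 33.3%. With runs as a term, the log2 ratio of Apol9b to Apol9a was 0.73 lower in pMCAO mice (-0.73, two-sided exact permutation test within runs over 72 splits, p = 0.0417, where 0.0139 is the smallest possible), a comparison chosen after the values had been seen. Reads that fit both genes can move this ratio, and their part in it was not tested.

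Other apolipoprotein L genes were measured beside the pair. Of 13 listed, 8 were matched and 6 tested, and Apol9a and Apol9b were the only ones called. Apol7a, the most abundant of the family and a neighbour of Apol9a, is named because its adjusted p lay nearest to the limit, a choice made after its values were seen. It reached on average 423.6 ± 141.1 CPM in the sham group (SD, n = 7) against 238.2 ± 87.5 CPM after stroke (SD, n = 5), with a log2 estimate of -0.67 (SE 0.15, limma-voom with runs, adjusted p = 0.0554) and differences of -0.61, -0.61 and -0.80 within the runs. Its adjusted p fell below 0.05 with DESeq2 (0.00804), DESeq2 size factors (0.0445), upper quartile scaling (0.0476), the replicate block (0.00586), and without sham replicate 4 (0.0369) or pMCAO replicate 3 (0.0198). It was 0.0543 or more in every other setting, up to 0.628 without run 1 and the run term. None of the other 3 tested genes of the family passed.

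The receptor and the proteins that carry or adjust the signal had 7 members, all with point estimates below 0 (median log2 fold change -0.30), and none passed. Ifnlr1, the specific chain of the type III receptor, measured between 23.3 and 47.1 CPM in sham-operated mice, with a median of 33.5 CPM, and 51.8, 25.9, 32.4, 31.1 and 27.1 CPM in pMCAO replicates 1 to 5. The groups overlapped throughout, and the log2 fold change of -0.11 had a 95% interval from -0.51 to 0.30. Irf9, the DNA-binding partner of Stat2, measured between 20.3 and 94.3 CPM in sham-operated mice, with a median of 60.5 CPM, and 54.6, 29.4, 36.3, 28.7 and 27.01 CPM in pMCAO mice. Of the 5 pMCAO values 4 lay below 40 CPM, yet sham replicates 1, 6 and 7 were as low. Its log2 estimate was -0.60 (SE 0.22, unadjusted p = 0.0169, limma-voom adjusted p = 0.272).

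Irf7, the factor that amplifies type I interferon production and is itself induced, measured between 83.8 and 186.8 CPM in sham-operated mice, with a median of 121.7 CPM, and 151.1, 71.2, 90.1, 78.3 and 80.1 CPM in pMCAO mice. The 3 highest sham values and the highest pMCAO value all came from run 1, and the log2 fold change was -0.22 (95% interval -0.53 to 0.10). Irf7 overlaps Phrf1 on the opposite strand, with none of its 100-base exon stretches shared. Usp18, which removes Isg15 from proteins and dampens the type I receptor, had a log2 estimate of -0.56 (SE 0.31). Isg15, the ubiquitin-like protein attached to others after interferon, had -0.41 (SE 0.22), and Stat2 and Irf1 had -0.30 and -0.24. Stat2 and Irf1 turned to 0.06 and 0.0078 when run 1 was left out together with the run term.

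All 9 effectors that act on RNA had point estimates below 0 (median -0.55) and lay lower in pMCAO mice within each of runs 1, 2 and 3, although Oasl2 turned to 0.0532 without the run term. Over all members, 21 of 43 (48.8%) were lower within each of those runs, against 13.4% of all genes, and 4 (9.30%) were higher within each, against 16.9%. Both Apol9 genes were among the 21. None of the 9 passed the adjustment, and 4 had an unadjusted p under 0.05. Oas1a, an enzyme that makes the 2-5A messenger on meeting double-stranded RNA, measured between 8.96 and 21.03 CPM in sham-operated mice, with a median of 15.4 CPM. In pMCAO mice it measured 8.03, 10.8, 10.4, 13.4 and 5.17 CPM, so that only sham replicates 2 and 7 fell among the pMCAO values. The log2 estimate was -0.86 (SE 0.25, limma-voom adjusted p = 0.159), with -0.92, -0.64 and -0.89 within the runs.

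Its neighbour Oas1g had a log2 estimate of -0.55 (SE 0.23, adjusted p = 0.328). The 2 genes share sequence, with 40.9% of the 100-base exon stretches of Oas1a also found in Oas1g, so they are not separate measurements throughout. Ifit3, a partner of Ifit1 in holding foreign RNA, measured between 1.60 and 9.17 CPM in sham-operated mice, with a median of 5.84 CPM, and 3.08, 1.73, 4.70, 5.28 and 1.17 CPM in pMCAO mice. The groups overlapped, with sham replicate 7 far below the other sham samples. The log2 estimate was -1.12 (SE 0.41, adjusted p = 0.263), and 31.7% of its exon stretches are shared with Ifit3b. Ifit1, which binds RNA without the host cap mark, had a log2 estimate of -0.60 (SE 0.24, adjusted p = 0.312). Oas2, Oas3, Oasl1 and Oasl2 had -0.36, -0.35, -0.19 and -0.03, and Ifit2, at a mean of 0.768 CPM in sham-operated mice and with no counts in 2 samples, had -0.62 with a 95% interval from -2.16 to 0.93.

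**Figure D3:**
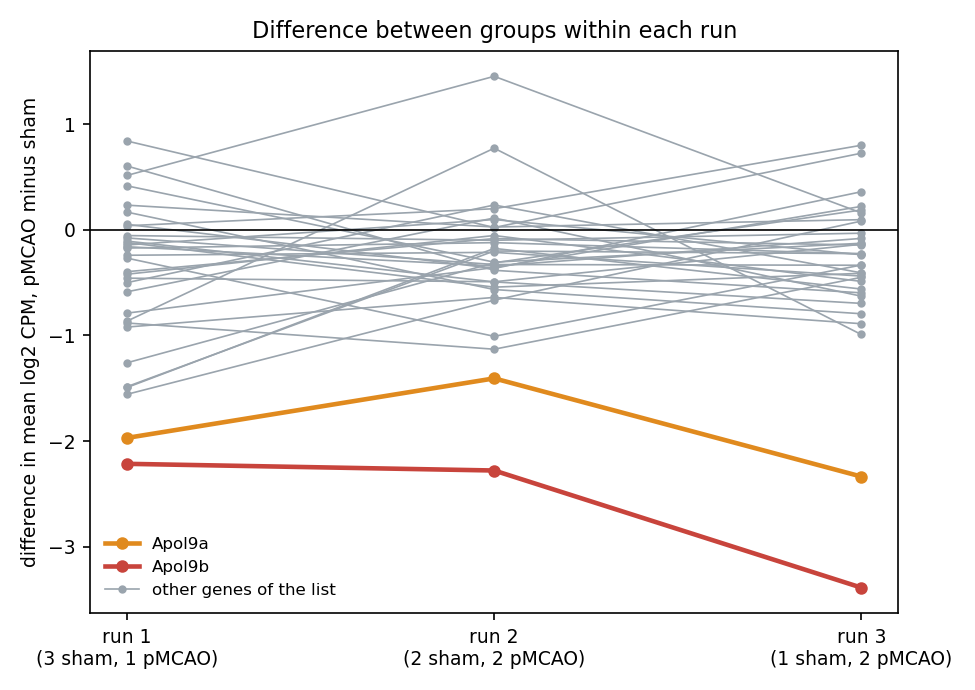
Difference in mean log2 CPM between pMCAO and sham mice within runs 1, 2 and 3 (x axis) for the 32 members with a mean of at least 8 CPM, 1 line per gene; run 4 holds no pMCAO mouse. Apol9a and Apol9b lie below the other genes in every run, at -1.41 or lower.

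The sensors and their helpers showed no common direction, with 3 of 5 point estimates below 0 and a median of -0.04. Ddx58, which encodes the RNA sensor RIG-I, had a log2 fold change of 0.10 (95% interval -0.22 to 0.41), and Ifih1, which encodes MDA5, had -0.04 (-0.39 to 0.31). Trim25, the ligase that aids RIG-I, had -0.17 (-0.51 to 0.16). These 3 were measured at means of 60.7 CPM or more in sham-operated mice, and their intervals leave out a fold change of 1 on the log2 scale in either direction. Dhx58 (0.12) and Zbp1 (-0.15) were lower in level and had wider intervals.

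The other antiviral effectors had 10 members, 7 with point estimates below 0 (median -0.26), and none passed. Rtp4, a chaperone-like protein induced by interferon, had a log2 estimate of -0.73 (SE 0.33, unadjusted p = 0.0421, limma-voom adjusted p = 0.367). Ifi35, an interferon-induced regulator of signalling, was the member with an unadjusted p under 0.05 in the other direction, at 0.53 (SE 0.23, unadjusted p = 0.0343, adjusted p = 0.342). It reached on average 33.9 ± 10.2 CPM in the sham group (SD, n = 7) against 44.3 ± 17.5 CPM after stroke (SD, n = 5). Mx1, a GTPase that traps viral parts, had -0.23, its relative Mx2, which the annotation marks as a polymorphic pseudogene, had -0.36, Rsad2 (viperin) had -0.08, Xaf1 had -0.29 and Lgals3bp had -0.28. Bst2 (tetherin), Ifitm3 and Ifi44 were near the floor in some samples, at means of 1.60 CPM or less in either group, and their estimates of -0.90, 0.96 and 0.52 had 95% intervals that spanned 0.

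Parp9 and Parp14, ADP-ribosyltransferases, and Dtx3l, the ligase partner of Parp9, had log2 fold changes of -0.16, -0.29 and -0.01. Parp9 and Dtx3l overlap each other on opposite strands. Of the 5 interferon-inducible GTPases measured, which act on pathogen vacuoles, 4 had point estimates below 0 (median -0.29): Gbp3 at -0.72, Gbp7 at -0.46, Igtp at -0.29 and Irgm1 at -0.18. Gbp2 was at 0.61, with no counts in 2 sham samples, and Gbp3 had none in 1 sample of each group. Igtp and Irgm1 turned to 0.25 and 0.13 without the run term.

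The immunoproteasome subunits went the other way in their point estimates. Psmb9 reached on average 6.70 ± 4.50 CPM in the sham group (SD, n = 7) against 12.8 ± 5.86 CPM after stroke (SD, n = 5), with a log2 estimate of 0.70 (SE 0.36, unadjusted p = 0.0704, limma-voom adjusted p = 0.438). Psmb8 had an average of 16.6 ± 6.04 CPM (SD, n = 7) against 23.6 ± 8.64 CPM (SD, n = 5), with a log2 estimate of 0.41 (SE 0.25, adjusted p = 0.522). Both were higher within each of the 3 runs, as were 16.9% of all genes, but neither passed. In run 1, with 1 pMCAO mouse, Psmb8 differed by only 0.0377. Markers of intraepithelial lymphocytes, T cells that sit between epithelial cells, had point estimates above 0 for 13 of 14 tested genes (median 0.88). Of these, 8 had an unadjusted p under 0.05 and 0 an adjusted p of at most 0.05 (limma-voom). Their summed level ranged from 44.6 to 847.5 CPM in sham and from 78.6 to 626.9 CPM in pMCAO mice, and in run 1 it reached at most 222.7 CPM. Only 3 of the 14 lymphocyte markers were higher within each of runs 1, 2 and 3. Of the T cell receptor complex genes, Cd3e and Cd3g had no counts in 1 sample of each group and Cd3d in 1 sham sample. The part of these cells in the values of Psmb8, Psmb9 or any other member was not tested.

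Absorptive enterocyte markers had point estimates above 0 for 10 of 10 genes (median 0.40), with 2 at an adjusted p of at most 0.05, and a sum of 12130 to 24840 CPM in sham and 16610 to 44790 CPM in pMCAO mice. Of 8 goblet cell markers, 5 had an unadjusted p under 0.05 and were higher. Tuft cell markers had point estimates below 0 for 6 of 6 genes (median -0.35), 2 of them at an unadjusted p under 0.05, and enteroendocrine markers for 8 of 8 (median -0.18), none at that level. Macrophage and dendritic cell markers summed to between 13.9 and 80.1 CPM in sham and between 21.4 and 45.3 CPM in pMCAO mice. Markers of the proximal small intestine summed to between 1484 and 2854 CPM and between 1598 and 2938 CPM, and those of the distal part to between 417.5 and 1080 CPM and between 668.8 and 1170 CPM. Of the 7 distal markers tested, 5 had point estimates above 0 (median 0.29), and 2 of these had an unadjusted p under 0.05. Of the 7 proximal markers tested, 5 also had point estimates above 0 (median 0.27). At an unadjusted p under 0.05, 2 proximal markers were lower and 1 was higher. The lower ones, named after their values were seen, were Adh6a, with a log2 estimate of -1.36 (unadjusted p = 0.000379, limma-voom adjusted p = 0.0599), and Cybrd1, with -2.97 (adjusted p = 0.145). Both lay lower in pMCAO mice within each of the 3 runs, and Cybrd1 was a low gene, at means of 1.33 and 0.193 CPM, with no counts in 2 pMCAO samples. The higher one was Lct, with a log2 estimate of 0.28 (limma-voom unadjusted p = 0.0476). Gata4, Onecut2, Fabp1 and Slc40a1 had 0.27, 0.23, 0.48 and 0.56. The part of these differences in the values of the Apol9 pair was not tested.

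Further genes of the pathway were counted in the same fit. Of 10 listed interferon genes only Ifnk, a type I interferon of epithelia, was matched, at on average 1.398 ± 0.930 CPM in the sham group (SD, n = 7) against 1.19 ± 0.435 CPM after stroke (SD, n = 5). The 11 receptor, kinase and signalling genes tested, among them the members Irf9, Stat2 and Ifnlr1, ranged from -0.60 to 0.34 in log2 fold change, and none passed. Ifngr2, a chain of the type II receptor, was at 0.34 (SE 0.14, adjusted p = 0.324), and the kinase Jak1 was at -0.29 (SE 0.14, adjusted p = 0.419). None of the 16 nucleic acid sensing genes had an unadjusted p under 0.05, with Aim2, a sensor of DNA in the cytosol, at 1.04 (SE 0.56) as the one with the smallest p.

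Of 54 further interferon-stimulated genes tested, 23 had point estimates below 0 and 31 above (median 0.13), and none passed the adjustment. An unadjusted p under 0.05 was found for 1 gene in each direction. Sp100, a protein of nuclear bodies, reached on average 31.7 ± 12.3 CPM in the sham group (SD, n = 7) against 54.4 ± 14.6 CPM after stroke (SD, n = 5), with a log2 estimate of 0.90 (SE 0.24, limma-voom adjusted p = 0.120) and 0.71, 0.60 and 1.21 within the runs. Eif2ak2, the kinase PKR that halts translation on double-stranded RNA, had -0.34 (SE 0.13, adjusted p = 0.284). Among 7 tested genes that restrain interferon signalling, Pias1, which dampens the signal in the nucleus, had -0.45 (SE 0.20, adjusted p = 0.341), and the median was -0.06.

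The level of the members was also compared from mouse to mouse. Over the 30 members with a mean of at least 8 CPM other than the pair, the mean log2 CPM centred on each gene was highest in sham replicates 3 (0.47), 2 (0.39) and 4 (0.24) and lowest in sham replicate 7 (-0.55) and pMCAO replicate 5 (-0.42). The other 4 pMCAO samples lay between -0.15 and 0.04, and sham replicates 1, 5 and 6 between -0.03 and 0.03. Of the 30 genes, 27 lay above their mean in sham replicate 3 and 6 in sham replicate 7, so the spread within the sham group covered that of the pMCAO group. The Apol9 pair shared part of this order, being highest in sham replicates 3 and 2, with sham replicate 7 the lowest sham and pMCAO replicate 5 the lowest pMCAO sample. It differed in pMCAO replicates 2 and 4, which lay at 0.03 and 0.04 over the 30 genes and were among the 3 lowest for Apol9b. Sham replicates 3 and 2 also had the lowest total counts (7418730 and 7538258) and the fewest genes with any count (13386 and 13514). Their shares of mitochondrial ribosomal RNA, 54.5% and 49.5%, were the highest of all samples. The part of library quality in these levels was not tested.

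**Figure D4:**
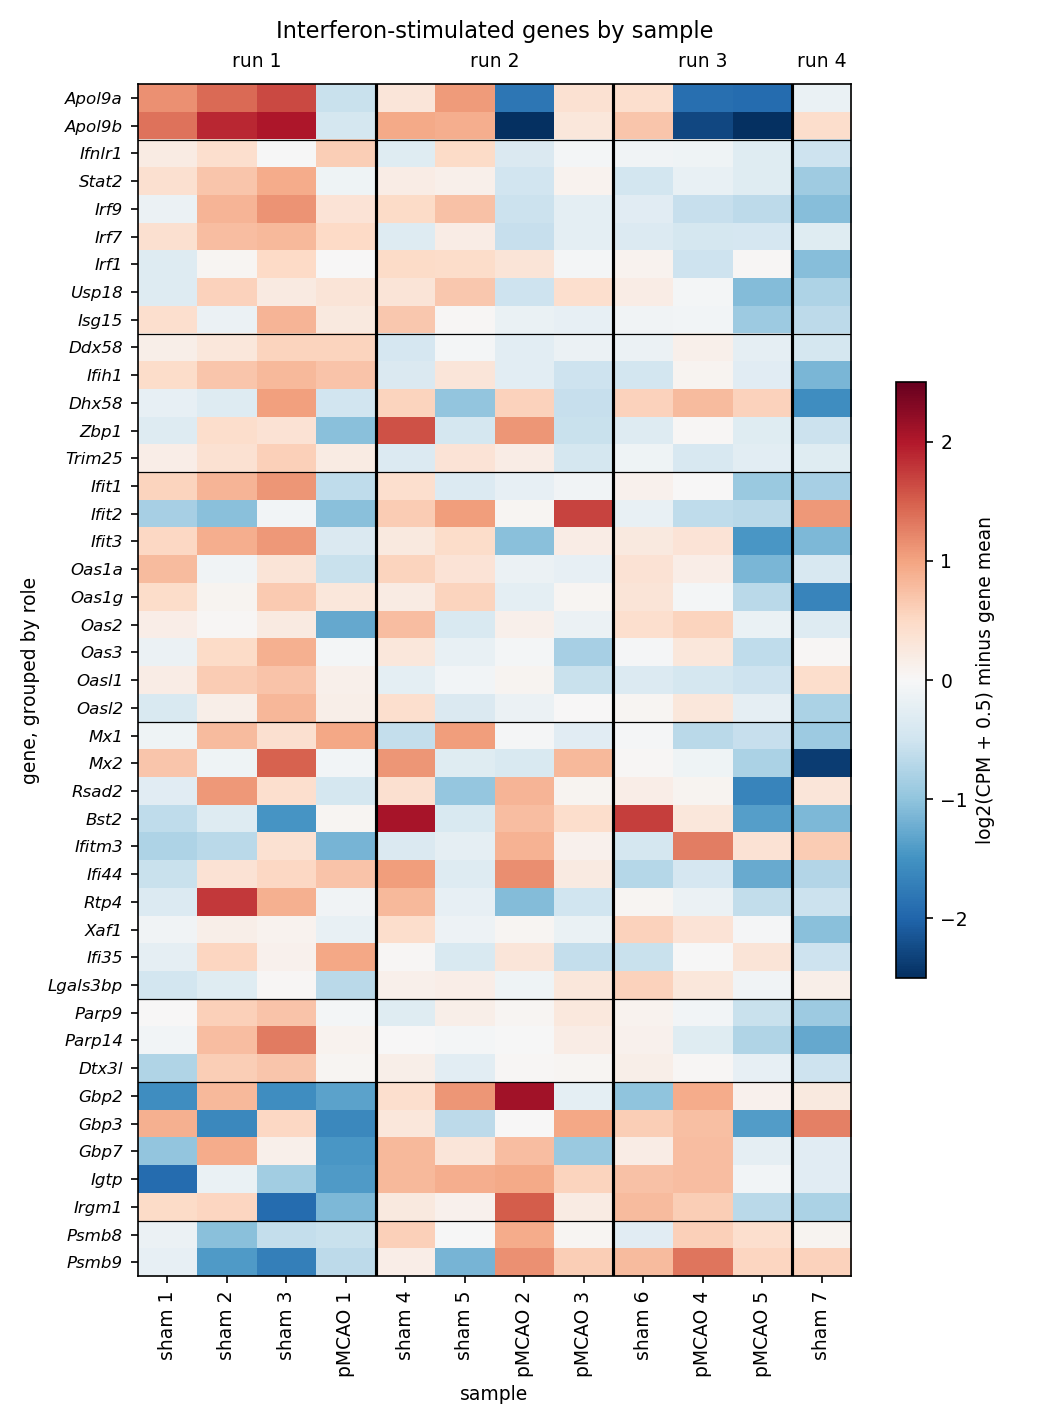
Log2(CPM + 0.5) of each member minus its mean over the 12 samples (colour, limited to 2.5 either way), with samples ordered by run and genes by role. Apol9a and Apol9b are at their lowest in pMCAO replicates 2, 4 and 5 and at their highest in sham replicates 2 and 3, where most other members are high too.

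By promoter letters, the 19 members with an ISRE-like match, both Apol9 genes included, had a median log2 fold change of -0.41, with 16 below 0. The 15 members with a window but no match had -0.17, with 11 below 0. The ranges overlapped, from -2.54 to 0.96 and from -0.62 to 0.70. Ifit1, Ifit3, Isg15 and Oas1a, whose elements are printed above, lay between -1.12 and -0.41, and Apol9a and Apol9b below them all. The genes printed were chosen by hand and do not stand for all members with a match. Ddx58 (0.10), Gbp2 (0.61) and Ifitm3 (0.96) also had a match and lay above 0. The difference between these sets of members was not tested.

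Some members overlap other genes, and reads there may fit both. An overlap on the same strand was found for 5 of the 43 members (Irf9 with Rnf31, Rtp4 with Gm45338, Parp14 with Gm49730, Gbp7 with Gm43802 and Igtp with Irgm2), and one on the opposite strand for 11, among them Psmb9 with Tap1, Psmb8 with Gm20496 and Ifi35 with Gm11626.

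Levels were compared between members per kilobase of exon. In sham-operated mice the highest were Trim25 (59.5 CPM per kb), Apol9b (57.8), Oasl1 (56.1), Lgals3bp (36.9) and Ifih1 (36.0), and the lowest was Ifi44 (0.127). In pMCAO mice Apol9b was at 11.3 CPM per kb, while Trim25 and Oasl1 were at 49.7 and 40.2. Apol9a stood at 26.1 CPM per kb in sham and 7.504 in pMCAO mice.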

How the data were processed

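Per the methods, reads were paired-end (100 bases) after cleavage of ribosomal RNA; STAR placed them on GRCm38 and featureCounts counted them per gene, and the authors' own limma-voom test corrected for the collection day. Strand use in counting is not given in the sources used here. The deposited count columns held raw counts per gene, and the deposited CPM columns held those counts scaled by the authors to each sample's total (190260 of 190260 values within 0.0006). A further 5 columns with the authors' fold changes, p-values and mean levels entered no fit here, although the runs go back to those fold changes. Every gene of the table had at least 0.5 CPM in 4 samples.

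Counts were filtered with filterByExpr (minimum count 10; 1393 genes removed), scaled with TMM and fitted with limma-voom on run and group (limma 3.58.1, edgeR 4.0.16, DESeq2 1.42.0, R 4.3.3). CPM values printed are TMM-scaled, and log2 CPM used a prior count of 2. The runs are libraries 58 to 61, 62 to 65, 66 to 68 and 72. They were taken from an earlier analysis of the same data, which derived them from the authors' deposited fold changes, and they are not known to be days. The calls made with runs, those of the Apol9 pair included, are therefore not independent of the authors' own comparison. The members, lists and runs were chosen with earlier results of these data known. The genes named are all members, those with the 5 smallest p-values plus Apol9a, Apol9b, Ifnlr1 and Irf7 by sample, and at most 3 genes per pathway list. Intervals on shares cover counting error only. No 2 libraries of a group agreed within sampling noise (chi-square per degree of freedom at least 17.7). Same-numbered replicates of the groups correlated between -0.239 and 0.398, so the numbers do not pair samples. The fitting was tested on simulated data. Annotation was GENCODE M21 on GRCm38. Results of 1 pathway gene are not reported here.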

Additional observations from a re-analysis of the deposited data

Results flagged for a closer look

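In 5 of 86 groups of values (43 members in each group of mice), the highest or lowest sample stood apart from the others by Dixon's criterion, and chance alone would give about 4.3, or 1 in 20. Sham replicate 7 was the lowest of its group for Ifit3 at a log2 CPM of 0.77, against 2.68 ± 0.37 (SD, n = 6) in the others, for Oas1g at 1.56, against 3.73 ± 0.23, and for Mx2 at -1.35, against 2.40 ± 0.77. This sample is alone in its run and does not enter the difference between groups in the fit with runs. pMCAO replicate 5 was the lowest of its group for Bst2 at -2.84, against 0.50 ± 0.38 (SD, n = 4) in the others, and for Dtx3l at 5.59, against 5.82 ± 0.01.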

How the results depend on the processing

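The count of DE genes was 47 of 14462 tested with runs, 21 with edgeR, 97 with DESeq2 (14453 tested), 26 with limma-trend, 29 with sample quality weights, and 0 for the group alone, without run 1, or without run 1 and the run term (an alternative chosen after seeing the data), where 1219 of 14462, 1421 of 15355 and 1164 of 15355 genes had an unadjusted p under 0.05. The replicate block in place of runs gave 243 DE genes, and it called the same number of members (2) and put 3 members at an adjusted p of at most 0.05, with Ifit1 as the addition. Single replicates left out gave 4 to 86 DE genes. The number of DE members and of members at an adjusted p of at most 0.05 fell from 2 to 0 under edgeR, for the group alone and in both fits without run 1, and ranged from 0 to 2 over replicates left out. Members at an unadjusted p under 0.05 numbered 9 with runs, 4 for the group alone, 3 without run 1 and the run term, and 5 to 14 over replicates left out. The members' median log2 fold change was -0.36 to -0.17 over replicates left out and -0.09 without run 1 and the run term. The cause was not tested.

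The sign of the log2 fold change was kept by 21 of 43 members in every setting, and 28 of 516 values over 13 alternatives and 29 of 512 over 12 replicates left out had the other sign. For the group alone these were Zbp1 (0.0061), Oasl2 (0.0532), Mx2 (0.16), Dtx3l (0.0461), Igtp (0.25) and Irgm1 (0.13). Without run 1 they were Zbp1 (0.0407) and Rsad2 (0.0837). Without run 1 and the run term they were Stat2 (0.061), Irf1 (0.0078), Ifih1 (0.18), Zbp1 (0.24), Oasl2 (0.17), Mx2 (0.51), Parp9 (0.15), Parp14 (0.10), Dtx3l (0.11) and Irgm1 (0.25). Dhx58 turned to -0.14 with edgeR and with DESeq2, -0.0826 with limma-trend and -0.0059 with quality weights, which also turned Ifih1 to 0.0075. Under the replicate block, Ddx58 was at -0.0759, Ifi44 at -0.34, Lgals3bp at 0.0229, Igtp at 0.0071 and Irgm1 at 0.0925.

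Over replicates left out, the log2 fold changes that changed sign ranged as follows: Ifnlr1 from -0.29 to 0.0938, Ifih1 from -0.20 to 0.14, Dhx58 from -0.21 to 0.31, Zbp1 from -0.68 to 0.21, Ifit2 from -1.43 to 0.12, Oasl2 from -0.16 to 0.0751, Mx1 from -0.58 to 0.13, Rsad2 from -0.63 to 0.41, Bst2 from -2.26 to 0.47, Ifi44 from -0.20 to 0.86, Dtx3l from -0.17 to 0.0941, Gbp2 from -0.14 to 1.504, Gbp3 from -1.69 to 0.31 and Irgm1 from -0.69 to 0.41. None of these genes passed the test with runs. The replicate numbers do not pair the samples, and the block is given as an alternative only.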
